A study of Mus musculus with 9 samples.

Results

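Transcripts of 9 genes were followed in sorted cells of the mouse embryo: the inhibitor of DNA binding genes Id1, Id2, Id3 and Id4, the homeobox genes Msx1 and Msx2, the inhibitory Smad genes Smad6 and Smad7, and Bambi. All are genes that respond to bone morphogenetic proteins (BMPs). Every probe set annotated to these symbols was taken, whatever its values, which gave 16 of 45037 probe sets and 9 of 18193 genes.

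Interlimb somites were dissected at embryonic day 9.5, the hypaxial side of the dermomyotome was taken, and there were 3 groups of 3 samples. The first held GFP positive cells of PAX3-FKHR/GFP embryos, in which 1 Pax3 allele carries GFP and the other, after recombination by a PGK-Cre transgene that is active in most tissues, makes PAX3-FKHR together with a nuclear lacZ reporter. PAX3-FKHR joins the DNA binding part of PAX3 to the activation domain of FKHR (FOXO1). The second held GFP positive cells of GFP/+ embryos, which have 1 allele with GFP and 1 intact Pax3 allele, so that both GFP positive groups share the GFP allele. The third held GFP- cells. Their Pax3 genotype is missing from the labels, and the study's methods place them in GFP/+ embryos. Embryos of 1 genotype were pooled before sorting, so a sample is a pool and not an animal, and the p-values below measure only the spread between such samples. The treatment protocol in the labels speaks of forelimb buds, while titles, source and tissue name interlimb somites, and the samples were taken as somites.

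BMP ligands bind paired type I and type II receptors, which phosphorylate Smad1, Smad5 and Smad9. These enter the nucleus with Smad4 and switch on target genes, among which the Id genes are the best known. Id proteins have a helix-loop-helix but no DNA binding region, so they capture E proteins and keep them from pairing with MyoD and its relatives. Msx1 and Msx2 are homeodomain repressors found where BMP is active in ectoderm, lateral mesoderm and dorsal neural tube. Smad6 and Smad7 block the signal inside the cell, and Bambi is a receptor-like membrane protein without a kinase domain that does so at the surface, so these 3 are feedback inhibitors. In the somite, BMP from neighbouring tissues is known to hold back muscle differentiation.

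Levels are log2 values from RMA (Robust Multichip Analysis), where a step of 1 is a doubling of the array signal. A gene was read from its brightest probe set over the 9 arrays, and the dimmer ones are given beside it. Levels of different probe sets are not compared with each other, since each has its own response. A difference was called when limma gave an adjusted p under 0.05, with adjustment over all 45037 probe sets, and when its absolute log2 size was at least 0.5, or 1.41-fold. Errors after ± are standard deviations of n = 3, and intervals are 95% intervals from the fit.

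The arrays had medians of 4.63 to 4.68 and correlated at 0.996 to 0.998 within groups. PAX3-FKHR/GFP replicate 1 had an upper quartile of 7.02, against 7.11 and 7.15 in replicates 2 and 3 of its group. The upper quartiles were 7.04, 7.08 and 7.07 in GFP/+ arrays and 7.10 in each GFP- array. Replicate 1 was thus near the GFP/+ arrays, and replicates 2 and 3 lay above all of them. Replicate 1 also held the lowest of the 3 PAX3-FKHR/GFP values at the brightest probe set of all 9 genes. It did so in 84.6% of the 7155 genes with a mean above 7. When the arrays were quantile normalized again, an alternative chosen after seeing these quartiles, it was lowest in 4 of the 9. Markers of dermomyotome were all called higher in GFP/+ than in GFP- cells (9 of 9 measured), and their summed linear signal was 4719 to 5846 in PAX3-FKHR/GFP, 4416 to 4533 in GFP/+ and 643 to 694 in GFP- cells. Pax3 itself stood at 8.25 to 8.31 in PAX3-FKHR/GFP, 9.06 to 9.29 in GFP/+ and 4.20 to 4.82 in GFP- samples. The study treats Pax3 as a control, because PAX3-FKHR/GFP embryos do not transcribe the intact mouse gene. What the remaining signal in PAX3-FKHR/GFP samples reads was not tested.

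The first comparison set PAX3-FKHR/GFP against GFP/+ samples. PAX3-FKHR/GFP cells gain the fusion with its lacZ reporter and lack the intact Pax3 allele of GFP/+ cells. These differ together and cannot be told apart. Whether the GFP/+ embryos carried the PGK-Cre transgene is not stated in the sources used here. Below, a change with PAX3-FKHR means a difference between these groups. The PAX3-FKHR/GFP samples lay above the GFP/+ samples at all 8 Id probe sets, and Id4 was called 2.39-fold and Id1 1.57-fold higher, while the Msx genes, the inhibitory Smads and Bambi gave no call. Of the 9 genes 2 were called higher and 0 lower, beside 1.31% of all genes called higher and 2.02% called in either direction. At 5 of the 16 probe sets the difference was called, all higher and all at Id1, Id2 or Id4, beside 0.884% of all probe sets. The study had already listed Id1, Id2 and Id4 as higher in somites with PAX3-FKHR. These counts are therefore not independent of the choice of genes. The median difference over the 9 genes was 0.37, beside -0.0015 over all genes. In 4 of 4 Id genes the PAX3-FKHR/GFP samples all lay above the GFP/+ samples, an arrangement found in 7.67% of all genes. These are bulk samples, so that more cells with a transcript and more of it per cell cannot be told apart.

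Id4 gave the largest of these differences and ranked 62 of 18193 genes by absolute size. Its brightest probe set (1423259_at) read 8.28, 8.54 and 8.81 in PAX3-FKHR/GFP samples, 7.27, 7.27 and 7.32 in GFP/+ samples and 8.72, 8.82 and 8.80 in GFP- samples. All PAX3-FKHR/GFP samples were thus well above all GFP/+ samples. Only replicate 3 (8.81) reached the range of the GFP- samples, and the others (8.28 and 8.54) lay below it. The PAX3-FKHR/GFP samples spread more widely, with an SD of 0.27 against 0.028 in GFP/+ cells. The difference of 1.26 (SE 0.12, interval 0.99 to 1.52) was 2.39-fold (1.99 to 2.87), with an adjusted p of 0.000256. Without PAX3-FKHR/GFP replicate 1, the lowest of its group, it was 1.39, and after quantile normalization 1.21. The other Id4 probe sets moved the same way. At 1450928_at the samples read 6.66, 6.80 and 6.95 in PAX3-FKHR/GFP and 5.97, 6.04 and 5.76 in GFP/+ cells, a called difference of 0.88 (adjusted p = 0.00135). At 1423260_at, the dimmest, PAX3-FKHR/GFP samples read 5.62, 5.68 and 5.62 and GFP/+ samples 5.09, 4.97 and 4.85, a called difference of 0.67 (adjusted p = 0.00333). In both, no sample of one group reached the range of the other.

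Id1, the member of the family often used as a readout of BMP signalling, has 1 probe set on the array. It read 9.39, 9.67 and 9.48 in PAX3-FKHR/GFP samples, 8.76, 8.84 and 8.98 in GFP/+ samples and 9.18, 9.15 and 9.08 in GFP- samples. The 3 groups did not overlap, with PAX3-FKHR/GFP highest, GFP- between and GFP/+ lowest. PAX3-FKHR/GFP exceeded GFP/+ by 0.65 (SE 0.096, interval 0.44 to 0.87), or 1.57-fold (1.36 to 1.82), with an adjusted p of 0.00499. It lost the call on leaving out PAX3-FKHR/GFP replicate 2 (0.57, adjusted p = 0.0558) or GFP/+ replicate 2 (0.64, adjusted p = 0.0626). After quantile normalization the difference was 0.63 (adjusted p = 0.00227). Over 15 alternatives the adjusted p ranged from 0.000263 to 0.0626 and 13 of them kept the call.

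At all 3 Id2 probe sets the PAX3-FKHR/GFP samples lay above the GFP/+ samples, but only the dimmest was called. At the brightest (1435176_a_at) PAX3-FKHR/GFP samples read 10.72, 11.05 and 11.05, GFP/+ samples 10.52, 10.59 and 10.58, and GFP- samples 10.65, 10.55 and 10.58. The PAX3-FKHR/GFP samples were the highest 3 of 9, but the difference to GFP/+ of 0.37 (interval 0.15 to 0.60) was not called (adjusted p = 0.142). At 1422537_a_at the values were 8.87, 8.86 and 8.96 in PAX3-FKHR/GFP and 8.37, 8.54 and 8.48 in GFP/+ cells, and the difference of 0.43 passed the adjusted p (0.0207) but not the fold limit. At the dimmest (1453596_at) PAX3-FKHR/GFP samples read 6.22, 6.38 and 6.32, GFP/+ samples 5.54, 5.38 and 5.40, and GFP- samples 5.47, 5.60 and 5.20. Here the difference of 0.87 (SE 0.089) was called at 1.82-fold (adjusted p = 0.000442), and no PAX3-FKHR/GFP sample overlapped with either other group. The mean of the 3 probe sets was also called, at 0.56 (adjusted p = 0.00100), so that the call for Id2 depends on how its probe sets are read.

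Id3 was read at 1 probe set among the brightest of the array, between the 96.5th and the 97.9th percentile of each array. It read 10.94, 11.16 and 11.16 in PAX3-FKHR/GFP samples, 10.51, 10.71 and 10.78 in GFP/+ samples and 10.76, 10.60 and 10.62 in GFP- samples. The PAX3-FKHR/GFP samples were again the highest 3 of 9, and the other groups overlapped. The difference to GFP/+ of 0.42 (SE 0.10, interval 0.19 to 0.64), 1.34-fold, was not called (adjusted p = 0.0841). After quantile normalization it was 0.39 with an adjusted p of 0.0128, and for Id2 0.34 with 0.00474, both still under the fold limit.

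**Figure D1:**
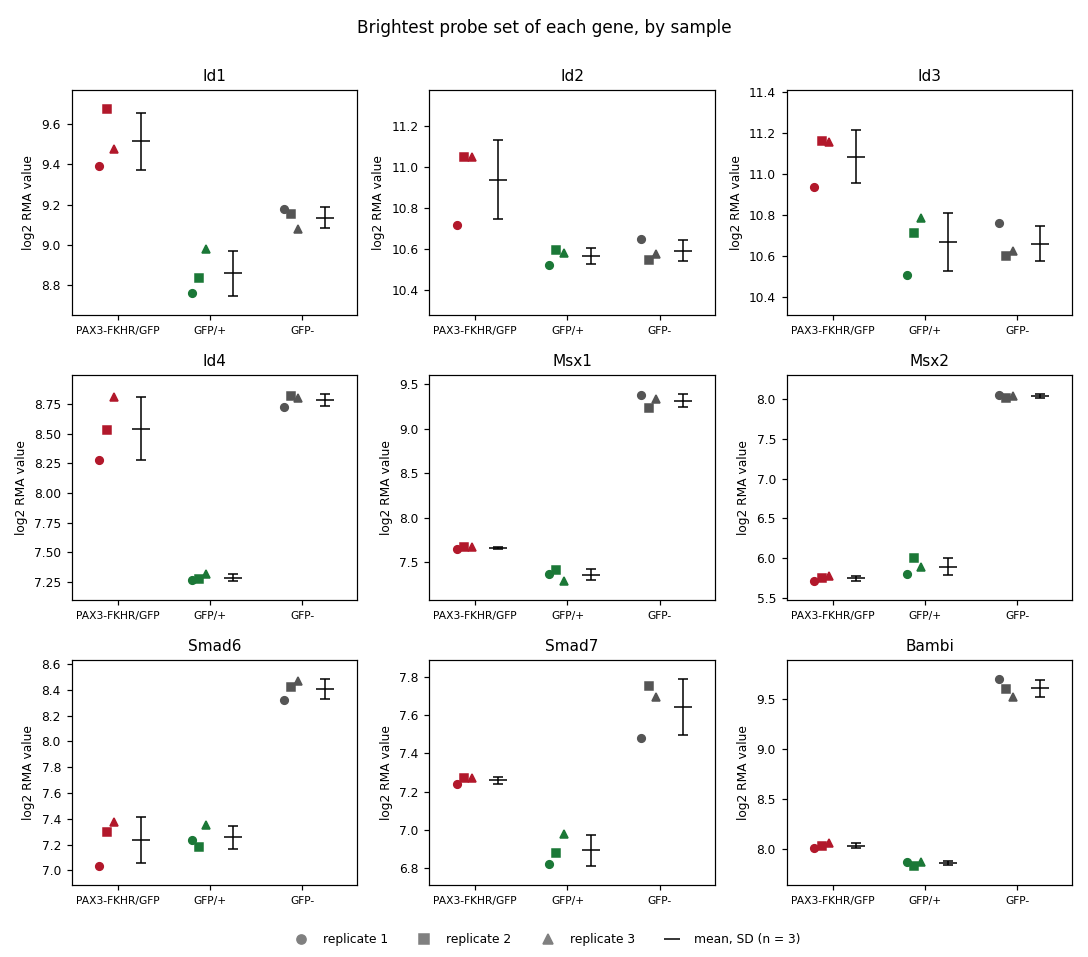
Log2 RMA value of the brightest probe set of each of the 9 genes (vertical axes) in each sample of the 3 groups (replicates by marker shape), with the mean and SD of n = 3 in black. Id4 stands at 8.28 to 8.81 in PAX3-FKHR/GFP, 7.27 to 7.32 in GFP/+ and 8.72 to 8.82 in GFP- cells, whereas Msx1, Msx2, Smad6 and Bambi are low in both GFP positive groups.

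**Figure D2:**
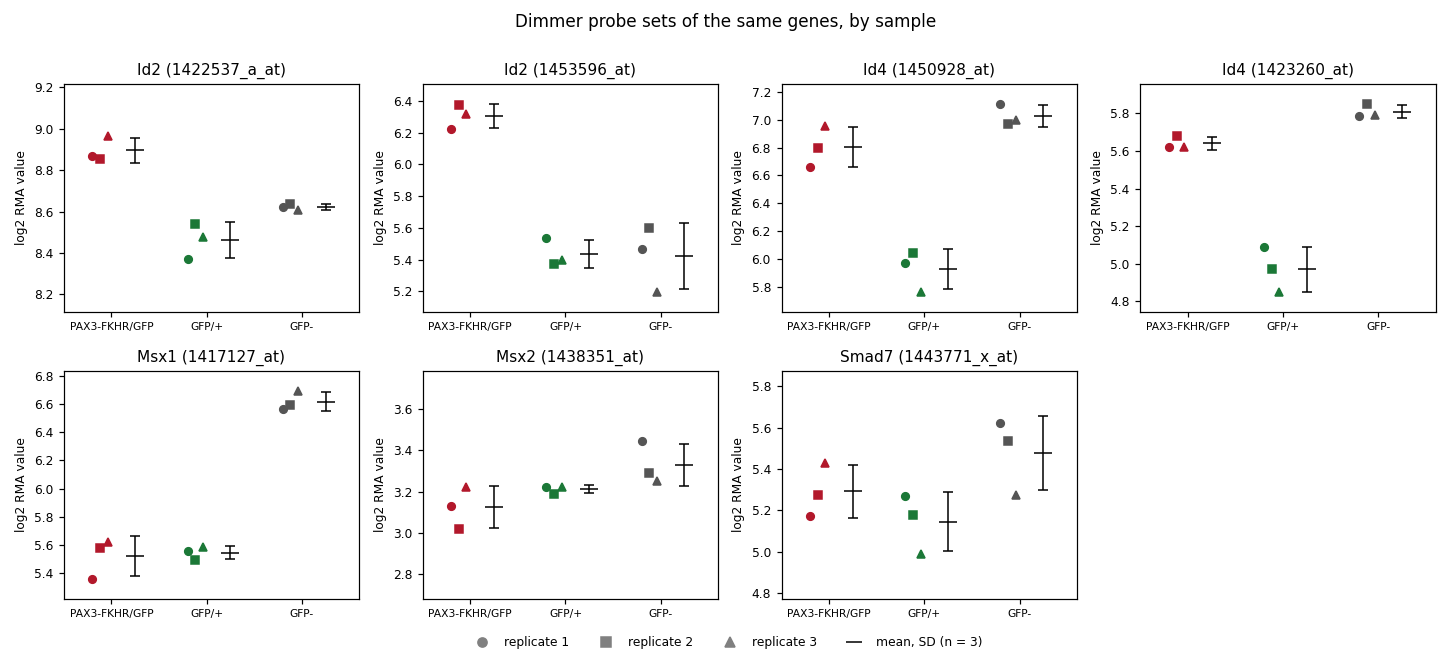
Log2 RMA value of the dimmer probe sets of Id2, Id4, Msx1, Msx2 and Smad7 (vertical axes) in each sample of the 3 groups, with the mean and SD of n = 3 in black. The PAX3-FKHR/GFP samples lie above the GFP/+ samples at the 2 Id2 and 2 Id4 probe sets and overlap with them at the others.

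The promoters of Id2, Id3 and Id4 are shown beside that of Msx2, since the BMP response of such genes lies partly in upstream DNA. At their brightest probe sets the PAX3-FKHR/GFP samples lay above the GFP/+ samples in the Id genes and below them in Msx2. Of these genes only Id4 was called there, so the sequences are not a contrast between changed and unchanged genes. RefSeq promoters of GRCm38.p6 were matched for 6 of the 9 genes. Each holds 250 bases before and 50 after the transcript start and is printed in the direction of the gene. Letters searched on both strands were GGCGCC, a GC-rich Smad1 and Smad5 element, CAGAC, a Smad4 element, ATTA, the core bound by homeodomains such as that of Pax3, GTCACG, a paired domain core, and GTAAACA, a forkhead motif. Capitals mark the matches.
Id2 (chr12:25096043-25096342, minus strand): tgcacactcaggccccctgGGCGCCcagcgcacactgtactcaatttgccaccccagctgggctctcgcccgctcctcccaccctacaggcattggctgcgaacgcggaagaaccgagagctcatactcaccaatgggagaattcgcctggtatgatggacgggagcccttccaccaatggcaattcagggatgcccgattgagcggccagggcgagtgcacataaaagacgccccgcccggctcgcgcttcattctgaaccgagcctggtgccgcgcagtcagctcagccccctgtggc
Id3 (chr4:136143572-136143871, plus strand): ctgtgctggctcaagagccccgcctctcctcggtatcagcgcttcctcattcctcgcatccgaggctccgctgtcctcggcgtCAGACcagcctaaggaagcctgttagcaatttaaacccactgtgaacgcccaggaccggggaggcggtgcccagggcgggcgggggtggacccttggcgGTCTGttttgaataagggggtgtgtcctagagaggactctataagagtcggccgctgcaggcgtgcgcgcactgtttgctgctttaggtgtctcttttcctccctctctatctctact
Id4 (chr13:48260866-48261165, plus strand): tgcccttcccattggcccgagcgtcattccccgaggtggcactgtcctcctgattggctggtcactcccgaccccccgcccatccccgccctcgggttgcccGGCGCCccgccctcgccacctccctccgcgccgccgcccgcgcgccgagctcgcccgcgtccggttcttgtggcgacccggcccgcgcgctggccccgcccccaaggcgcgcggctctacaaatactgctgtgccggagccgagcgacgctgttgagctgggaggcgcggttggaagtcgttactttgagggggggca
Msx2 (chr13:53472731-53473030, minus strand): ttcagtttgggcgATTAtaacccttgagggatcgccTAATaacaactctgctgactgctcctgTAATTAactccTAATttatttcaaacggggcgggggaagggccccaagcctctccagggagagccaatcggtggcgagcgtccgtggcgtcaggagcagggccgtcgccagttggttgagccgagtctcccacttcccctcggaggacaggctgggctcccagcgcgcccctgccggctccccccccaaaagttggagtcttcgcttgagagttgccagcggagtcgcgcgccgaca

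GGCGCC occurred once in Id2, starting at -231 from the transcript start, and once in Id4, at -148, and 11.9% of 32851 promoters of this length hold it. CAGAC occurred in Id3 at -167 and, as GTCTG on the other strand, at -68, and 49.6% of promoters hold it. Msx2 held ATTA or TAAT at 5 places between -237 and -176, of which those at -187 and -185 overlap, and 58% of promoters hold it. Msx1 had 1 ATTA, at -25, and Smad6 had no match. GTCACG and GTAAACA, held by 8.22% and 3.65% of promoters, had no match in these 6 windows. The matches are letters in a window and were not tested for binding.

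Of the 5 repressors and feedback inhibitors 0 were called in PAX3-FKHR/GFP against GFP/+ cells, beside the 2.02% of all genes called in either direction. In Smad7, Msx1 and Bambi, as in the Id genes, all PAX3-FKHR/GFP samples lay above the GFP/+ samples, and whether these 5 genes differ from the Id genes was not tested. For Smad6 the samples read 7.04, 7.30 and 7.38 in PAX3-FKHR/GFP and 7.23, 7.18 and 7.35 in GFP/+ cells. These overlapped, and the difference of -0.019 had an interval of -0.24 to 0.21 (adjusted p = 0.978), which excludes a change of the size of the fold limit in either direction. Msx2 (1449559_at) read 5.71, 5.75 and 5.77 in PAX3-FKHR/GFP and 5.79, 6.0 and 5.88 in GFP/+ cells, a difference of -0.15 with an interval of -0.34 to 0.050 (adjusted p = 0.661). It was the only one of the 9 genes with all PAX3-FKHR/GFP samples below the GFP/+ samples, as were 6.89% of all genes.

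Smad7 came nearest to a call. Its brightest probe set (1423389_at) read 7.24, 7.27 and 7.27 in PAX3-FKHR/GFP samples and 6.82, 6.88 and 6.98 in GFP/+ samples, without overlap. The difference of 0.37 (interval 0.19 to 0.54) passed the adjusted p (0.0448) but not the fold limit, and the other Smad7 probe set (1443771_x_at) gave 0.15 with overlapping groups. Msx1 (1448601_s_at) read 7.65, 7.67 and 7.67 in PAX3-FKHR/GFP and 7.36, 7.41 and 7.29 in GFP/+ cells, a difference of 0.30 that was not called (interval 0.14 to 0.47, adjusted p = 0.0916). Its other probe set (1417127_at) read 5.36, 5.58 and 5.62 in PAX3-FKHR/GFP and 5.56, 5.50 and 5.59 in GFP/+ cells, a difference of -0.026, so that the 2 probe sets did not move together. Bambi read 8.01, 8.03 and 8.06 in PAX3-FKHR/GFP and 7.87, 7.83 and 7.87 in GFP/+ cells, a difference of 0.18 (interval 0.017 to 0.34, adjusted p = 0.422) in which the groups did not overlap. The median difference of these 5 genes was 0.18, beside 0.54 for the 4 Id genes.

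Markers of the sorted cells and of other cells moved in the same comparison. Of 9 dermomyotome markers 4 were called higher, Met (1.70), Lbx1 (1.42), Tcf15 (0.92) and Pax7 (0.67), and 2 lower, Pax3 (-0.91) and Sim1 (-0.66). The study treats the lower Pax3 as a control for the alleles of PAX3-FKHR/GFP embryos. It is therefore not taken here as a finding about the cells. Of 7 neural crest markers 1 was called higher (Tfap2b, an AP-2 transcription factor, 0.59), and their summed linear signal was 3092 to 3675 in PAX3-FKHR/GFP and 2562 to 2738 in GFP/+ cells. Of 5 primitive erythroid markers 1 was called higher (the embryonic globin gene Hbb-y, 0.65), with sums of 1926 to 2240 in PAX3-FKHR/GFP and 1380 to 1450 in GFP/+ cells. Of 5 sclerotome markers 3 were called lower, Pax1 (-0.57), Foxc2 (-0.56) and Foxc1 (-0.54), with sums of 1800 to 2041 in PAX3-FKHR/GFP and 2620 to 2874 in GFP/+ cells. Among 7 dorsal neural tube markers only Pax6, a paired-box gene of neural progenitors, was called, at -0.74, and the sums were 1334 to 1645 in PAX3-FKHR/GFP and 1471 to 1510 in GFP/+ cells. No marker of lateral or intermediate mesoderm (7), endothelium (7) or surface ectoderm (6) was called. The sums of lateral and intermediate mesoderm were 182 to 186 in PAX3-FKHR/GFP and 179 to 186 in GFP/+ cells. The study places Foxc2 in the dermomyotome too, together with Pax3, and reports Foxc2 and Foxc1 as lowered by PAX3-FKHR. Both genes enter the sclerotome sum. The study also reports Met, Lbx1 and Pax7 as raised by PAX3-FKHR in somites. Cell numbers and regulation of such genes cannot be told apart here. The part of dermomyotome, neural crest, blood and sclerotome cells in the Id differences was not tested.

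The second comparison set the GFP positive cells of GFP/+ embryos against GFP- cells. The repressors and feedback inhibitors were all lower in GFP/+ cells, Msx2 4.43-fold, Msx1 3.89-fold, Bambi 3.38-fold, Smad6 2.22-fold and Smad7 1.68-fold. Id4 was 2.82-fold lower, whereas Id1, Id2 and Id3 were not called. In all, 6 of the 9 genes were called lower and 0 higher, beside 5.05% of all genes called lower and 6.96% called in either direction. At 9 of 16 probe sets the difference was called lower, beside 3.24% of probe sets. The median difference over the 9 genes was -1.15, beside 0.0078 over all genes.

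Msx2 read 5.79, 6.0 and 5.88 in GFP/+ samples and 8.06, 8.01 and 8.04 in GFP- samples, the widest gap among the members. The difference was -2.15 (SE 0.072, adjusted p = 3.84e-08). Its other probe set (1438351_at), which lay between the 10.3rd and the 23.6th percentile of the arrays, read 3.02 to 3.44 over all 9 samples and gave -0.12, not called. Averaging both probe sets gave -1.13, still called, and in the same way -1.25 in place of -2.29 for PAX3-FKHR/GFP against GFP- cells. Msx1 read 7.36, 7.41 and 7.29 in GFP/+ samples and 9.38, 9.24 and 9.33 in GFP- samples, a difference of -1.96 (SE 0.063, adjusted p = 2.88e-08). Its dimmer probe set, which had not moved with PAX3-FKHR, was here called too, with 5.50 to 5.59 in GFP/+ and 6.56 to 6.69 in GFP- samples and a difference of -1.07 (adjusted p = 6.49e-06).

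Bambi read 7.87, 7.83 and 7.87 in GFP/+ samples and 9.70, 9.61 and 9.53 in GFP- samples, a difference of -1.76 (SE 0.061, adjusted p = 4.64e-08). Smad6 read 7.23, 7.18 and 7.35 in GFP/+ samples and 8.32, 8.42 and 8.47 in GFP- samples, a difference of -1.15 (SE 0.070, adjusted p = 2.98e-06). Smad7 differed less than the others, with 6.82, 6.88 and 6.98 in GFP/+ samples and 7.48, 7.76 and 7.69 in GFP- samples, or -0.75 (SE 0.085, adjusted p = 0.000267). In none of these genes did a GFP/+ sample reach a GFP- sample, and in 7 of the 9 genes all GFP/+ samples lay below all GFP- samples, beside 16% of all genes. The dimmer Smad7 probe set gave -0.33 and was not called (adjusted p = 0.117).

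Among the Id genes, Id4 was lower in GFP/+ cells at all 3 probe sets, with differences of -1.49 (SE 0.058, adjusted p = 1.03e-07), -1.10 (adjusted p = 2.24e-05) and -0.84 (adjusted p = 0.000118). Id1 differed by -0.28 without overlap, which passed the adjusted p (0.0319) but not the fold limit. The values of Id2 and Id3 overlapped between GFP/+ and GFP- cells. Their differences were -0.026 (interval -0.14 to 0.086) for Id2 and 0.0068 (interval -0.16 to 0.18) for Id3, so that a difference of the size of the fold limit lies outside both intervals.

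Markers of several other tissues were higher in the GFP- cells. Called lower in GFP/+ cells were 5 of 7 markers of lateral and intermediate mesoderm, 4 of 6 of surface ectoderm, 5 of 7 of endothelium and 5 of 5 of primitive erythroid cells. Summed linear signals of lateral and intermediate mesoderm were 179 to 186 in GFP/+ and 1406 to 1529 in GFP- cells, and those of surface ectoderm 366 to 389 in GFP/+ and 3125 to 3314 in GFP- cells. Sums of endothelium were 491 to 524 in GFP/+ and 786 to 833 in GFP- cells, and those of primitive erythroid cells 1380 to 1450 in GFP/+ and 36169 to 36418 in GFP- cells. The part of these tissues in the member differences was not tested. Called higher in GFP/+ cells were 5 of 7 neural crest, 2 of 7 dorsal neural tube and 4 of 5 sclerotome markers. Cell type and activity of the Pax3 locus differ together in this comparison and cannot be told apart.

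The third comparison set PAX3-FKHR/GFP against GFP- cells and shares its samples with the other comparisons, so it adds no independent measurement. It places the members against a common level. Of the 9 genes 4 were called lower and 0 higher, beside 5.2% of all genes called lower and 7.83% called in either direction. The 4 were Msx2 (-2.29, 4.90-fold), Msx1 (-1.65, 3.15-fold), Bambi (-1.58, 2.99-fold) and Smad6 (-1.17, 2.25-fold), each with an adjusted p of 8.95e-06 or less. Smad7 stood at -0.38 (adjusted p = 0.0147), under the fold limit, although it had been called between GFP/+ and GFP- cells. At the probe set level 5 of 16 were called lower, beside 3.36%, and 1 higher, beside 1.99%. All PAX3-FKHR/GFP samples lay above all GFP- samples in 3 genes, beside 11.1% of all genes, and below them in 5, beside 14.4%.

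At their brightest probe sets 0 of the 4 Id genes were called in this comparison. Id4 in PAX3-FKHR/GFP cells differed from GFP- cells by -0.24, with an interval of -0.50 to 0.018 and overlapping samples (adjusted p = 0.311). Its dimmer probe sets gave -0.22 and -0.17, with all PAX3-FKHR/GFP samples below the GFP- samples but no call. Id1, Id2 and Id3 were above GFP- cells by 0.38 (adjusted p = 0.0175), 0.35 (adjusted p = 0.0604) and 0.42 (adjusted p = 0.0123), without overlap and under the fold limit. The single probe set called higher was the dimmest of Id2, at 0.88 (SE 0.11, adjusted p = 0.000226). The order of levels was thus PAX3-FKHR/GFP, GFP-, GFP/+ for Id1, and GFP-, PAX3-FKHR/GFP, GFP/+ for Id4, where the first pair overlapped. For Id2 and Id3 PAX3-FKHR/GFP was highest and the other groups overlapped. For Msx1, Smad7 and Bambi the order was GFP-, PAX3-FKHR/GFP, GFP/+, for Msx2 it was GFP-, GFP/+, PAX3-FKHR/GFP, and for Smad6 both GFP positive groups overlapped below GFP- cells.

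**Figure D3:**
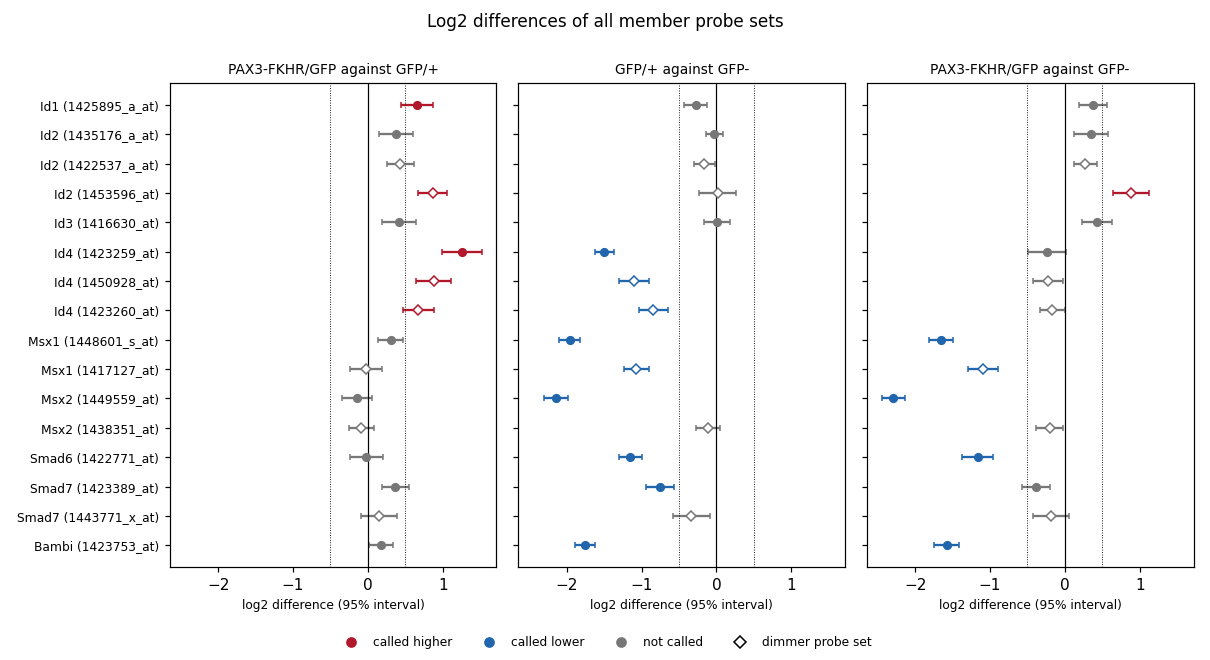
Log2 difference (horizontal axes) with its 95% interval for all 16 probe sets in PAX3-FKHR/GFP against GFP/+, GFP/+ against GFP- and PAX3-FKHR/GFP against GFP-, with dotted lines at the fold limit of 0.5. Red points, called higher, appear at 5 Id probe sets in the first comparison, and blue points, called lower, at 9 probe sets in the second and 5 in the last, where 1 Id2 probe set is red.

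The rest of the pathway was read from lists of its parts. Over all genes, 1.31% were called higher with PAX3-FKHR and 2.02% in either direction. For GFP/+ against GFP- cells 5.05% were called lower and 6.96% in either direction. The counts of the lists stand beside these shares, and a single call in a short list is no result about the list. Receptors and signal carrying Smads, 13 genes, gave 0 calls in each of the 3 comparisons, with median differences of 0.021 for PAX3-FKHR/GFP against GFP/+, -0.032 for GFP/+ against GFP- and -0.021 for PAX3-FKHR/GFP against GFP-. Of 6 measured ligands 1 was called higher with PAX3-FKHR, Bmp5, at 0.53 (SE 0.10, adjusted p = 0.0313), with 7.96, 8.02 and 8.30 in PAX3-FKHR/GFP and 7.44, 7.68 and 7.58 in GFP/+ samples. Bmp4, a ligand of lateral mesoderm and ectoderm, read 6.0, 6.34 and 6.13 in PAX3-FKHR/GFP, 6.61, 6.55 and 6.57 in GFP/+ and 9.37, 9.41 and 9.32 in GFP- samples. It was far lower in GFP/+ than in GFP- cells (-2.79, 6.93-fold), and its difference of -0.42 between PAX3-FKHR/GFP and GFP/+ was not called (adjusted p = 0.0724). In GFP/+ against GFP- cells 3 of the 6 ligands were called lower and 0 higher.

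Of 9 measured antagonists, which bind or hinder the ligands outside the cell, 2 were called higher with PAX3-FKHR and 0 lower. Chrdl1, a chordin-like protein, read 6.03, 6.12 and 5.86 in PAX3-FKHR/GFP and 4.94, 4.98 and 4.95 in GFP/+ samples, 2.07-fold higher (1.05, adjusted p = 0.000166). Grem1, or gremlin, read 7.77, 7.86 and 7.55 in PAX3-FKHR/GFP and 6.76, 7.21 and 7.15 in GFP/+ samples, 1.61-fold higher (0.68, adjusted p = 0.0214). Neither pair of groups overlapped. The median of the antagonists was 0.30, beside -0.0015 for all genes. In GFP/+ against GFP- cells 2 of the 9 were called higher, Fst (follistatin) and Grem1, and 1 lower, Sostdc1 (-1.66). Fst read 9.58, 9.58 and 9.55 in GFP/+ samples and 5.72, 6.41 and 6.13 in GFP- samples, a difference of 3.48, and Grem1 differed by 0.68.

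Of 12 other genes reported to respond to BMP in various tissues, 1 was called higher with PAX3-FKHR and 0 lower. This was Tbx3, a T-box repressor, which read 7.75, 7.87 and 8.02 in PAX3-FKHR/GFP, 6.94, 6.56 and 6.80 in GFP/+ and 7.81, 7.74 and 7.80 in GFP- samples. Against GFP/+ cells it was 2.16-fold higher with PAX3-FKHR (1.11, SE 0.11, adjusted p = 0.000389), 2.02-fold lower in GFP/+ than in GFP- cells (-1.01, adjusted p = 6.62e-05) and overlapped between PAX3-FKHR/GFP and GFP- cells (0.097). In GFP/+ against GFP- cells 6 of the 12 were called lower and 1 higher, beside 5.05% of all genes called lower. Hand2, which is also among the lateral mesoderm markers, was lowest there, with 5.15, 4.88 and 4.99 in GFP/+ and 9.49, 9.62 and 9.43 in GFP- samples.

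**Figure D4:**
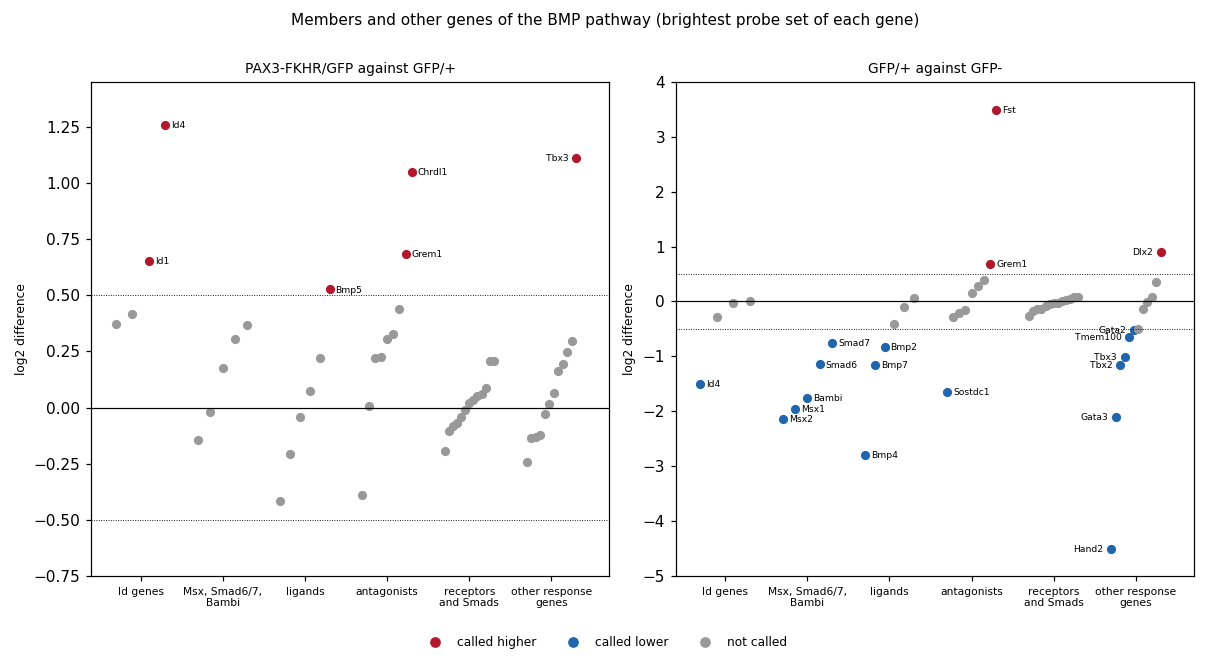
Log2 difference (vertical axes) of the 9 genes and of the ligands, antagonists, receptors and other response genes in PAX3-FKHR/GFP against GFP/+ (left) and GFP/+ against GFP- (right), 1 point per gene, ordered by size within each list, with dotted lines at the fold limit. Called genes are labelled, and all 13 receptors and Smads lie within the dotted lines on both sides.

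Id proteins act through their partners. The E protein genes Tcf3, Tcf4 and Tcf12 were not called in PAX3-FKHR/GFP against GFP/+ cells, with differences of 0.13, 0.17 and 0.22. Of the 4 myogenic factors with which E proteins pair, Myf5 was called higher, with 8.67, 8.85 and 8.87 in PAX3-FKHR/GFP and 7.98, 7.92 and 7.83 in GFP/+ samples (0.89, adjusted p = 0.000283). Myog, needed for differentiation, was called lower, with 7.15, 7.29 and 7.18 in PAX3-FKHR/GFP and 8.21, 8.57 and 8.53 in GFP/+ samples (-1.23, adjusted p = 0.000115). Myf6 was called lower as well (-1.18, adjusted p = 3.31e-05), and Myod1 was not called (-0.15).

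The 5 genes whose values were most like those of Id4 over the 9 samples, among 1121 genes that span at least 1 log2 unit, were Camk2n1 (Pearson r 0.99), Tgfb2 (0.986), Astn1 (0.984), Onecut2 (0.983) and Ap1s3 (0.974). The 9 points fall into 3 groups, so these values largely describe differences between group levels. All 5 had their lowest mean in GFP/+ cells, which follows from picking them for likeness to Id4. Ap1s3 averaged 6.76 in PAX3-FKHR/GFP and 6.75 in GFP- cells, whereas in Id4 the PAX3-FKHR/GFP mean lay below the GFP- mean. Tgfb2, a TGF-beta ligand, read 7.73, 7.93 and 7.89 in PAX3-FKHR/GFP, 7.11, 7.11 and 7.03 in GFP/+ and 8.03, 8.01 and 8.11 in GFP- samples. Like Id4 it was lowest in GFP/+ cells, but its PAX3-FKHR/GFP samples did not overlap with GFP- samples.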

How the data were processed

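Somite cells of mouse embryos at embryonic day 9.5 were sorted by GFP fluorescence, RNA was amplified in a 3′ protocol with 2 cycles, and biotin-labelled targets were hybridized to Affymetrix arrays, with 3 samples in each of 3 groups. The authors deposited log2 values made by RMA, which corrects background, quantile normalizes and summarizes probe sets. No RMA version is stated in the sources used here, nor whether all arrays went through it as 1 set. The study's filter on absent probe sets was not applied.

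The 64 control probe sets among 45101 were not tested. In GEO's platform annotation 34945 probe sets had 1 gene symbol, 932 several and 9160 none. Each comparison was fitted to its 6 samples with limma 3.58.1 in R 4.3.3 (lmFit, eBayes with an intensity trend), two-sided, with Benjamini-Hochberg adjustment, after a check on simulated data. The 9 genes and all lists were chosen with earlier results of these data known. Among these, the study had listed Id1, Id2 and Id4 as higher with PAX3-FKHR in somites. All 16 probe sets of the 9 genes are reported. Of other lists the text names genes called in PAX3-FKHR/GFP against GFP/+ (up to 6 a list) and up to 2 others, except that Myod1, all 3 E protein genes and the genes labelled in the pathway plot were named after their values were seen. Listed genes without a single-symbol probe set were not analysed here. For likeness, the 5 genes with the highest Pearson r to the member with the largest difference were named. Alternatives were a fit of all 9 samples, the replicate number as a block, the local pooled error test of the study's methods as rewritten here, no intensity trend, no fold limit, brighter probe sets only, median centring, repeated quantile normalization, the mean of probe sets, and leaving out each sample. The number of arrays limits the precision.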

Additional observations from a re-analysis of the deposited data

How the results depend on the processing

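The count of called genes was 2 for PAX3-FKHR/GFP against GFP/+, 6 for GFP/+ against GFP- and 4 for PAX3-FKHR/GFP against GFP-, and 83 of 87 alternative counts of genes or probe sets lay within 1.5 times of these. Without the fold limit PAX3-FKHR/GFP against GFP- gave 7 genes (2 higher, 5 lower) and 10 probe sets (4 higher, 6 lower). Leaving out 1 sample gave 1 to 2 genes and 4 to 5 probe sets for PAX3-FKHR/GFP against GFP/+, the lower counts when replicate 2 of either group was left out, which lost Id1, and over all genes 228 and 239 calls without these samples instead of 368. The member counts of the other comparisons did not change when a sample was left out. Among the differences of the 9 genes, only some that lay near 0 and were not called changed sign. For GFP/+ against GFP- these were Id2, with 0.0031 by the local pooled error test and -0.047 to 0.0029 when a sample was left out, and Id3, with -0.051 to 0.086 when a sample was left out. For PAX3-FKHR/GFP against GFP/+ this was Smad6, with 0.063 by the local pooled error test and -0.089 to 0.081 when a sample was left out. Id3 in PAX3-FKHR/GFP against GFP- passed the fold limit by the local pooled error test (0.53), which takes medians. Correlations of same-numbered deviations were between -0.096 and 0.10 over the 3 comparisons. For GFP/+ against GFP- cells, sorted by GFP from embryos of 1 genotype, they were 0.094, 0.062 and 0.0095. With 3 samples a group such values cannot decide whether same-numbered samples came from 1 pool. The fit with the replicate number as a block again called 2, 6 and 4 genes and changed no member call. The mean of probe sets gives no probe set count. The cause of these changes was not tested. With 3 pooled samples a group, the standard errors of the 16 member differences between PAX3-FKHR/GFP and GFP/+ were 0.072 to 0.12.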
